A study of Mus musculus with 5 samples.

Results

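The PDGF ligands and receptors are 6 genes here, the ligands Pdgfa, Pdgfb, Pdgfc and Pdgfd and the receptors Pdgfra and Pdgfrb. They were taken by name from the 19736 genes with a molecule in any of 5 single-cell RNA libraries of mouse liver, and all 6 were found in every library. The operated group was 3 libraries made 2 weeks after partial ligation of the inferior vena cava (pIVCL), an operation that raises the pressure in the hepatic veins and models liver congestion. The other group was 2 libraries made 2 weeks after sham surgery. Per the labels, every mouse was a wild-type male that had surgery when 9 weeks old, and each library came from a mouse. The cells were liver cells left after low-speed spins had taken out most hepatocytes and a density gradient most dead cells and erythrocytes. The libraries sham 1, sham 2 and pIVCL 1 carried the batch label 2021.3 and pIVCL 2 and pIVCL 3 the label 2021.7, so that only pIVCL 1 can be set against sham libraries within a batch.

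Platelet-derived growth factors are secreted dimers that cross-link and activate PDGF receptors, which are tyrosine kinases on mesenchymal cells. PDGF-A and PDGF-C act mainly through the alpha receptor (Pdgfra) and PDGF-D mainly through the beta receptor (Pdgfrb), whereas PDGF-B binds both. PDGF-C and PDGF-D are secreted with an inhibitory domain and must be cut by proteases before they bind. In vessels, endothelial PDGF-B recruits pericytes that carry the beta receptor. In liver the pericytes are the hepatic stellate cells, for which PDGF-B is a well-known mitogen and whose beta receptor is known to increase when they turn into collagen-producing cells.

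The libraries held 13532840, 24400965 and 12448260 molecules in pIVCL 1, 2 and 3, against 30523228 and 25035721 in sham 1 and 2. Of 19815 deposited cells 16672 were kept, and they formed 32 clusters, of which 11 were given no class from marker genes. Pairs of libraries shared between 8 and 30 cell labels, none of them with identical counts. The classes used below were 8474 endothelial cells, 2037 Kupffer cells (the resident macrophages), 943 stellate cells and fibroblasts, 746 T cells, 663 B cells, 383 conventional dendritic cells, 219 NK cells and ILC1 and 159 cholangiocytes (bile duct cells). Each was called by at least 50% of its markers, 12 of 12 in most endothelial clusters and 10 of 10 in the Kupffer clusters, and 2301 cells stayed without a class. A cluster of 390 cells led by Gja5 and Vwf, genes of large vessels, had 7 of 12 endothelial markers but stayed outside the endothelial class because Sdc1, a plasma cell marker, was among its leading genes. It is called large-vessel-like here.

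Over all deposited cells, Pdgfb was the most often counted ligand in each library. Pdgfb had 1324, 2045 and 1229 molecules in pIVCL 1, 2 and 3, against 1302 and 792 in sham 1 and 2. Pdgfa had 414, 615 and 374 molecules in the pIVCL libraries and 734 and 491 in the sham libraries. Pdgfd had 384, 369 and 134 molecules in the pIVCL libraries and 712 and 560 in the sham libraries. Pdgfc had 150, 242 and 240 molecules in the pIVCL libraries and 414 and 309 in the sham libraries. Among the receptors, Pdgfra had 752, 624 and 421 molecules in pIVCL and 390 and 452 in sham. Pdgfrb had 524, 683 and 296 molecules in pIVCL, against 200 and 233 in sham. The sham libraries were deeper than the pIVCL libraries, so levels are given below as molecules of a gene per 1000000 molecules of the same cells, written CPM. Levels are compared between cells within a gene, not between genes.

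Each gene had its own set of source cells, and receptors and ligands lay mostly in different classes. Of the kept molecules of all libraries together, endothelial cells held 50.2% of Pdgfb and 68.3% of Pdgfd. Kupffer cells held 60.7% of Pdgfc and 25.3% of Pdgfa. Stellate cells and fibroblasts held 85.7% of Pdgfra, 89.9% of Pdgfrb and 22.1% of Pdgfa. These shares pool both groups, which differ widely for endothelial Pdgfb and for Pdgfa in stellate cells and fibroblasts, as given with each ligand. In pIVCL and sham endothelial cells together, Pdgfra had 31 molecules and Pdgfrb had 15. In Kupffer cells Pdgfra had 22 molecules and Pdgfrb 19. In T cells, whose libraries had medians between 2386 and 3330 molecules per cell, Pdgfra had 2 molecules in pIVCL 2 and 0 in each other library.

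**Figure D1:**
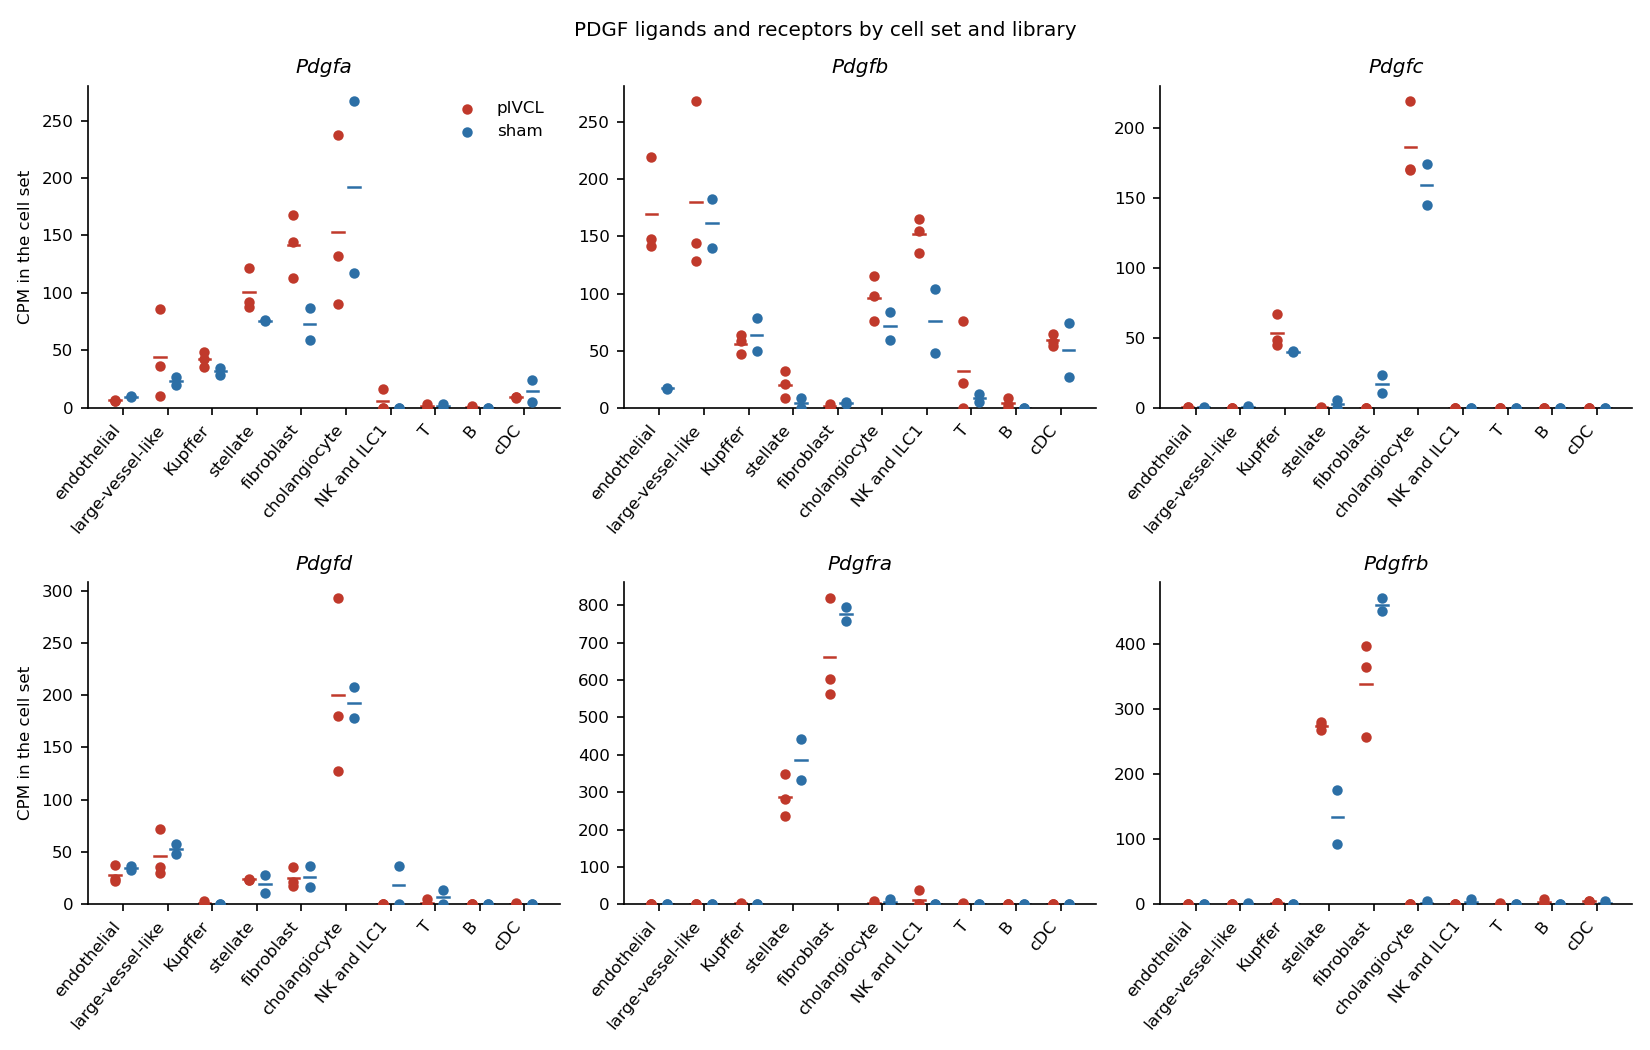
Level in CPM (y axis, from 0, a scale of its own for each gene) of the 6 genes in 10 cell sets (x axis), with 1 point per library and a bar at the group mean. Endothelial Pdgfb lies at 142 to 220 in the 3 pIVCL libraries and at 16.4 and 17.5 in the 2 sham libraries, while both receptors are near 0 outside the stellate and fibroblast sets, apart from 3 Pdgfra molecules in the NK cells and ILC1 of pIVCL 1.

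The order of the cell sets differed by gene. Pdgfc and Pdgfd were highest in cholangiocytes, where Pdgfc had 170, 170 and 219 CPM in pIVCL and 174 and 145 in sham. Pdgfd had 293, 127 and 180 CPM in pIVCL cholangiocytes and 208 and 178 in sham cholangiocytes. The groups overlapped for both genes, and cholangiocytes were not tested, as pIVCL 3 had 15 of them. For Pdgfc the next sets were Kupffer cells and a macrophage cluster led by Cx3cr1, outside the Kupffer class, which overlapped. The Cx3cr1-led cluster had 12.2, 21.0 and 38.9 CPM of Pdgfc in pIVCL and 14.0 and 40.6 in sham, and fibroblasts had 0 in pIVCL and 10.8 and 23.0 in sham. In T, B, NK and dendritic cells Pdgfc was counted in 0 molecules in every library. For Pdgfd the next sets were the large-vessel-like cluster, with 71.5, 36.0 and 29.8 CPM in pIVCL and 57.5 and 48.0 in sham, and the endothelial class, and these 2 overlapped. Pdgfa was highest in cholangiocytes and fibroblasts, which overlapped, followed by stellate cells. Next came Kupffer cells, the large-vessel-like cluster and the Cx3cr1-led macrophage cluster, which overlapped. In sham the Cx3cr1-led cluster was close to stellate cells.

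Pdgfb in endothelial cells had the largest difference of any member in a tested class. Endothelial cells held 961, 1015 and 715 Pdgfb molecules in pIVCL 1, 2 and 3, against 238 and 188 in sham 1 and 2, although sham had more endothelial cells. In CPM this was 142, 148 and 220 in pIVCL endothelial cells and 17.5 and 16.4 in sham endothelial cells. Every pIVCL library was above both sham libraries by a wide margin. Pdgfb rose by 3.22 ± 0.20 on the log2 scale (estimate ± SE, edgeR quasi-likelihood test, Benjamini-Hochberg adjusted p = 0.000263), higher in 3 of 3 pIVCL libraries. Of the 3 members with enough counts to be tested in endothelial cells it was the only one to pass, in a class where 5.69% of 11229 genes passed and 44.4% had groups that did not overlap. With pIVCL 1 against the sham libraries of its own batch the difference was 3.00, from a fit with no spread within pIVCL.

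In each pIVCL library a larger share of endothelial cells carried Pdgfb, and a larger share carried 3 or more molecules, than in either sham library. In pIVCL 1, 499 of 1463 endothelial cells had at least 1 Pdgfb molecule and 117 had 3 or more. In pIVCL 2, 552 of 1594 had a molecule and 110 had 3 or more, and in pIVCL 3 these were 312 of 685 and 93. In sham 1, 153 of 2516 endothelial cells had a molecule and 21 had 3 or more, and in sham 2 these were 130 of 2216 and 16. The most Pdgfb molecules counted in 1 endothelial cell were 13, 13 and 10 in the pIVCL libraries and 7 and 8 in the sham libraries. After each cell had been thinned to 1000 molecules (2 pIVCL and 0 sham endothelial cells had fewer and were left out), 14.2 ± 3.97% of pIVCL endothelial cells (SD, n = 3) and 1.52 ± 0.10% of sham endothelial cells (SD, n = 2) kept a Pdgfb molecule. The two-sided exact permutation test gave p = 0.2, the smallest that 3 against 2 libraries allow, and an adjusted p of 0.433 over the 13 shares tested. Without thinning the shares were 38.1 ± 6.46% in pIVCL and 5.97 ± 0.15% in sham. B cells, which should lack Pdgfb, gave 1.79, 0 and 0.408% in pIVCL 1, 2 and 3 and 0% in both sham libraries, at lower medians of 1488 to 3230 molecules per cell, and with 17 and 16 sham cells a count of 0 allows shares of up to 17.7 and 18.8%. These limits and all intervals for single libraries cover counting error only.

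The endothelial class is not made of the same clusters in both groups. Most pIVCL endothelial cells lay in clusters led by Esm1, Cyp4b1 and Efnb1 and most sham ones in clusters led by Kit, Adam23 and Flrt1, so Pdgfb was also read within clusters. These clusters were singled out after the values had been seen. In the Cyp4b1-led cluster Pdgfb had 124, 118 and 189 CPM in pIVCL and 14.9 and 25.7 in sham, and it rose by 2.70 ± 0.28 (adjusted p = 0.000162, edgeR; 0.382% of its genes passed). In the Esm1-led cluster it had 215, 195 and 259 CPM in pIVCL, against 67.6 and 100 in 24 and 22 sham cells, a difference of 1.46 ± 0.31 (adjusted p = 0.116; 0.0412% of its genes passed). In the Efnb1-led cluster the values were 45.4, 65.3 and 96.6 in pIVCL and 25.5 and 34.2 in sham (difference 1.14 ± 0.31, adjusted p = 0.0961; 0.792% of its genes passed). In the Bmp4-led cluster, which also had Rspo3 and Wnt9b among its leading genes, they were 201, 145 and 274 in pIVCL and 113 and 110 in sham (difference 0.83 ± 0.33, adjusted p = 0.168; 4.68% of its genes passed). The Kit-led cluster had 77.9, 177 and 196 CPM in the 39, 17 and 2 cells of pIVCL and 19.6 and 13.7 in the 1083 and 949 cells of sham, and it was too small in pIVCL to be tested. Pdgfb was higher in every pIVCL library than in any sham library in 7 of the 8 endothelial clusters, among them the Flrt1-led one with 44, 2 and 1 cells in pIVCL. The exception was the Adam23-led cluster, with 39.2, 64.9 and 0 CPM in pIVCL (0 of 8 cells in pIVCL 3) and 3.96 and 4.76 in sham. Groups did not overlap for 37.3% of genes in the Esm1-led cluster, 29.3% in the Efnb1-led, 27.8% in the Cyp4b1-led and 34.3% in the Bmp4-led one, and this share was not computed for the other 4 clusters. Without the Esm1-led cluster the endothelial difference was 2.74 ± 0.22 (adjusted p = 0.00178; 1.75% of genes passed).

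The large-vessel-like cluster had high Pdgfb in both groups. It had 129, 144 and 268 CPM in pIVCL and 183 and 140 in sham, and these overlapped (difference 0.06 ± 0.29, adjusted p = 0.951; 0.151% of its genes passed). In sham this made it the highest of the endothelial sets, with 156 and 105 Pdgfb molecules in 156 and 139 cells, beside 238 and 188 molecules in 2516 and 2216 endothelial cells. In pIVCL the endothelial class was at a level that overlapped that of this cluster. The effect in endothelial cells exceeded that in the large-vessel-like cluster by 3.25 ± 0.25 on the log2 scale (interaction with library as a block, adjusted p = 2.23e-34, a comparison added after the values had been seen). That p rests on a spread that the fit shares between genes, and the cluster had 36, 35 and 24 cells in the pIVCL libraries. With the cluster put into the endothelial class, Pdgfb rose by 2.63 ± 0.20 (adjusted p = 0.001; 5.22% of genes passed).

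**Figure D2:**
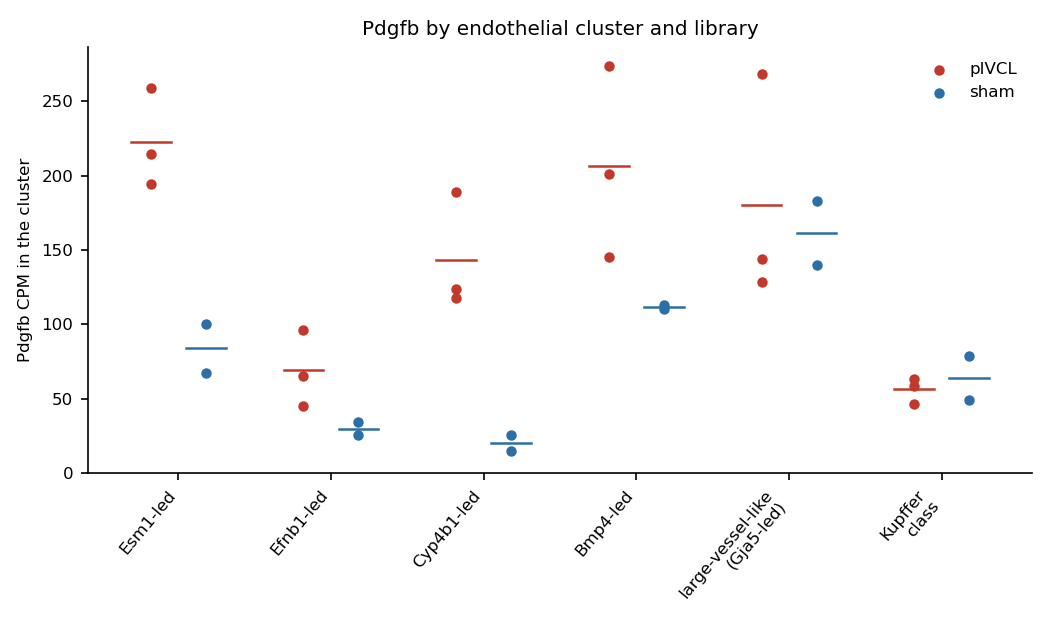
Pdgfb level in CPM (y axis, from 0) in 4 endothelial clusters named by a leading gene, in the large-vessel-like cluster and in Kupffer cells (x axis), with 1 point per library and a bar at the group mean. The pIVCL points are above the sham points in each of the 4 endothelial clusters and mix with them in the large-vessel-like cluster and in Kupffer cells.

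Markers of other cells moved with these values. In endothelial cells the 10 hepatocyte markers made up 0.0577 to 0.0685% of molecules in pIVCL and 0.0176 to 0.0323% in sham, and 9 of the 10 were higher in every pIVCL library. Markers of plasmacytoid dendritic cells made up 0.13 to 0.185% in pIVCL and 0.0941 to 0.104% in sham, with 2 of 6 higher in every pIVCL library. Higher in every pIVCL library were also 6 of 8 B-cell, 6 of 12 stellate and fibroblast, 5 of 10 Kupffer and 4 of 7 neutrophil markers. Kupffer markers made up 0.0445 to 0.0475% in pIVCL and 0.0435 to 0.0443% in sham. The T, NK, conventional dendritic cell and monocyte lists overlapped. The 12 endothelial markers themselves made up 2.33 to 2.52% in pIVCL and 2.75 to 2.89% in sham. Mitochondrial molecules made up 7.05 to 7.73% of endothelial molecules in pIVCL libraries, against 8.21 to 8.42% in sham libraries. Cells over the 25% mitochondrial limit, which were left out, were 2.09, 29.9 and 11.03% of deposited cells in pIVCL 1, 2 and 3 and 6.17 and 5.52% in sham 1 and 2. The part of these in the Pdgfb result was not tested. Hepatocytes themselves held 3 Pdgfb molecules over all libraries. They were 509 cells at a median of 1638 molecules per cell, 417 of them from pIVCL 3, so levels per library cannot be read from this count. The 7 megakaryocyte and platelet markers are of interest because platelets store PDGF-B. They made up 0.000663 to 0.00117% of endothelial molecules in pIVCL and 0.00107 to 0.00122% in sham, with 1 marker at 0 and none higher in every pIVCL library. Over all kept cells they made up 0.00506 to 0.00647% in pIVCL and 0.00266 to 0.00308% in sham. In Kupffer cells these were 0.00977 to 0.0128% and 0.00501 to 0.006%. In stellate cells and fibroblasts and in NK cells and ILC1 the groups overlapped. The list includes Pf4, a leading gene of the Cx3cr1-led macrophage cluster. The part of platelets in Pdgfb was not tested.

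In Kupffer cells, which also make Pdgfb, the groups overlapped. Pdgfb had 46.8, 58.5 and 63.3 CPM in pIVCL Kupffer cells and 78.9 and 49.4 in sham Kupffer cells (difference -0.22 ± 0.21, adjusted p = 0.655). The endothelial effect exceeded the Kupffer effect by 3.46 ± 0.19 (interaction with library as a block, adjusted p = 3.9e-07). The macrophage cluster led by Cx3cr1 was higher than Kupffer cells in each library, with 215, 162 and 182 CPM of Pdgfb in pIVCL and 248 and 139 in sham. NK cells and ILC1 had 136, 154 and 165 CPM in pIVCL and 48.2 and 104 in sham, which did not overlap (difference 0.87 ± 0.47, adjusted p = 0.771; 0.0345% of the genes of that class passed and 23.4% had groups that did not overlap). In these cells endothelial markers made up 0.0119 to 0.0284% of molecules in pIVCL, against 0.706% in sham 1, the lowest library for Pdgfb, and 0.0518% in sham 2. Mitochondrial molecules made up 7.54 to 8.07% in pIVCL, against 10.1 and 9.51% in sham, and the part of either was not tested. T cells had 0, 76.1 and 21.4 CPM in pIVCL and 11.7 and 4.68 in sham. The high T-cell value came from pIVCL 2, with 47 molecules in 26 of 159 cells, and the difference of 2.16 ± 1.26 had an adjusted p of 0.962 and changed sign with batch as a term (-5.08, adjusted p = 0.854). Of all 7499 T-cell genes 0% passed with edgeR. At the finer clustering resolution of 2, a cluster of 60 cells had 12 of 12 endothelial and 6 of 8 T-cell markers. Of its cells 36 came from pIVCL 2. The T-cell cluster led by Cxcr6 then held 67 cells of pIVCL 2, against 103 at resolution 1. The part of such mixed cells in the T-cell value was not tested. Dendritic cells had 54.1, 65.0 and 57.9 CPM in pIVCL and 74.2 and 26.6 in sham (difference 0.17 ± 0.38, adjusted p = 0.921; 0.442% of their genes passed). Against stellate cells and fibroblasts, where Pdgfb had 12, 35 and 22 molecules in pIVCL and 4 and 1 in sham, the endothelial effect was larger by 1.27 ± 0.88 (adjusted p = 0.604), so a difference between those classes was not detected at this depth.

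The share of a library's Pdgfb that endothelial cells held differed accordingly. Endothelial cells held 76.5, 54.2 and 61.2% of kept Pdgfb molecules in pIVCL 1, 2 and 3, against 19.9 and 26.3% in sham 1 and 2. Kupffer cells held 7.91 ± 3.63% in pIVCL (SD, n = 3) and 36.6 ± 13.5% in sham (SD, n = 2). Neither pair of groups overlapped, with an exact permutation p of 0.2 each (adjusted 0.371). The large-vessel-like cluster held 1.43, 1.07 and 2.31% in pIVCL and 13.1 and 14.7% in sham. These shares depend on how many cells of each class were captured as well as on the level per cell.

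**Figure D3:**
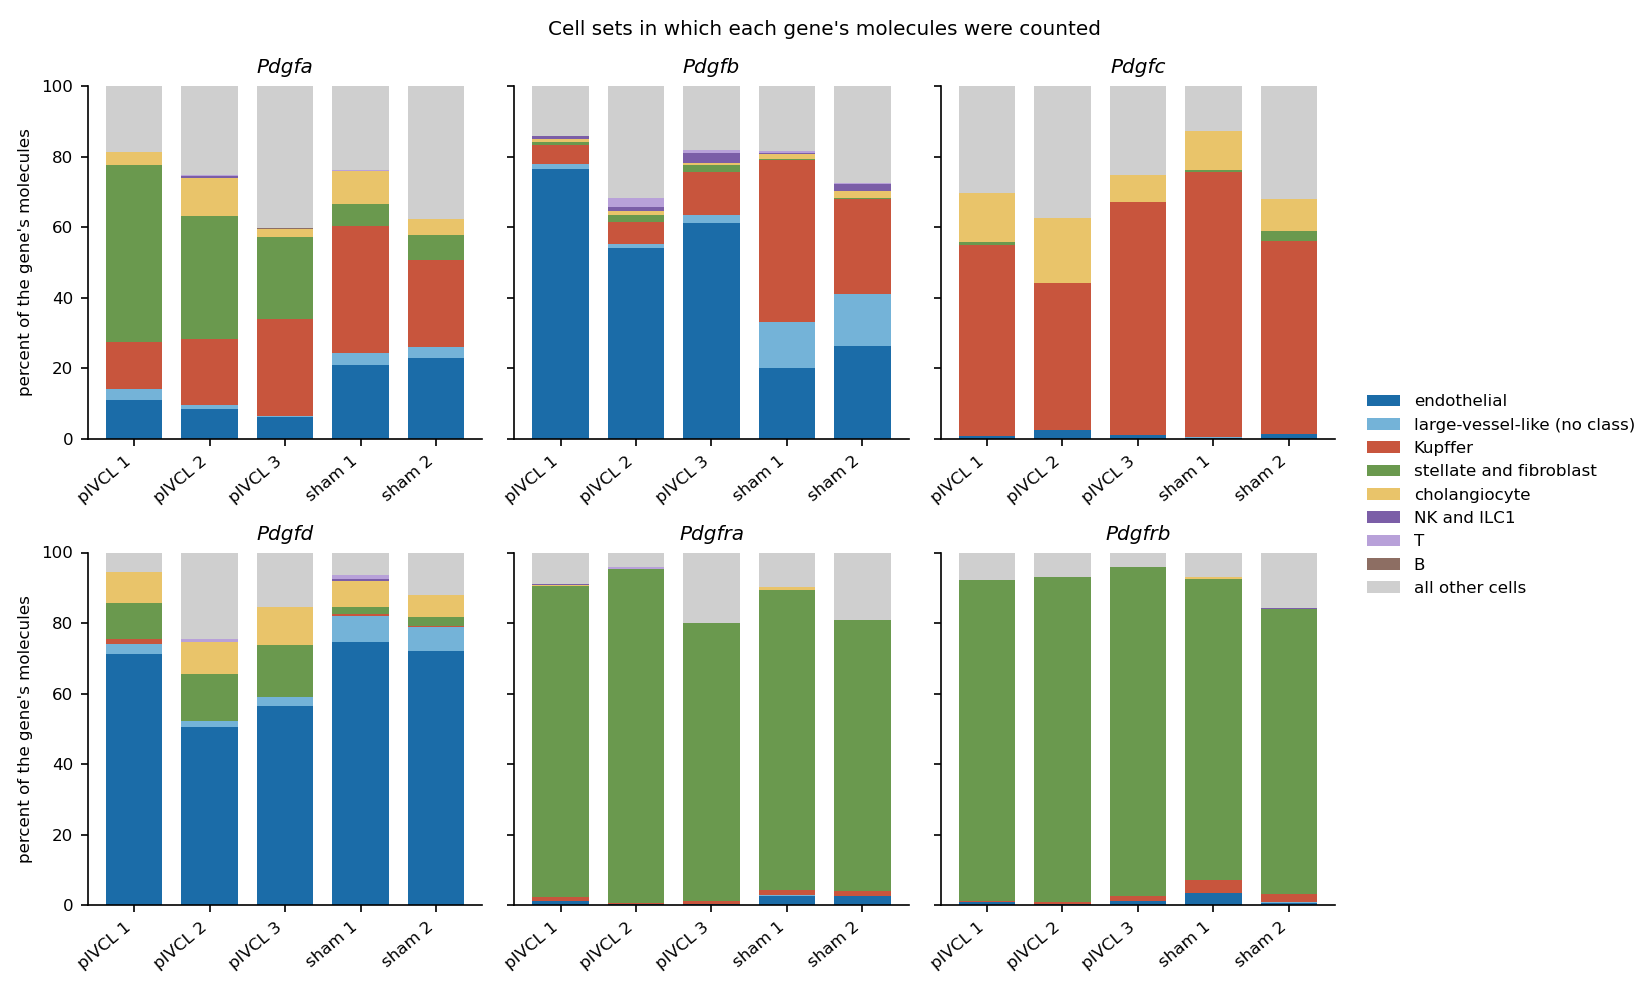
Percent of each gene's molecules in kept cells (y axis, 0 to 100) that lay in each cell set, with 1 bar per library (x axis). Endothelial cells hold the largest part of Pdgfb in the 3 pIVCL bars, and Kupffer cells and the large-vessel-like cluster hold more of it in the sham bars, while stellate cells and fibroblasts hold most of both receptors in all 5.

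Pdgfa showed smaller differences, negative in the endothelial class and positive in Kupffer cells and in stellate cells and fibroblasts together. In endothelial cells it had 6.19, 6.28 and 6.46 CPM in pIVCL (42, 43 and 21 molecules) and 10.4 and 9.09 in sham (141 and 104 molecules). The groups did not overlap, and the difference was -0.71 ± 0.22 on the log2 scale with an adjusted p of 0.0993, which did not pass the threshold of 0.05. Within endothelial clusters, which the groups fill differently, the direction varied. In the Efnb1-led cluster Pdgfa had 5.28, 4.79 and 3.86 CPM in pIVCL and 2.73 and 3.54 in sham, which did not overlap, from 2 to 8 molecules a library. In the Bmp4-led cluster it had 4.47, 13.5 and 29.2 CPM in pIVCL and 4.91 and 7.87 in sham, and in the Esm1-led cluster 4.77, 6.63 and 5.10 CPM in pIVCL and 7.51 and 8.36 in sham, from 1 molecule in each sham library. In stellate cells and fibroblasts together Pdgfa had 120, 96.8 and 97.2 CPM in pIVCL and 79.0 and 65.6 in sham (difference 0.64 ± 0.22, adjusted p = 0.226). In Kupffer cells it had 35.1, 48.5 and 42.7 CPM in pIVCL and 34.9 and 28.7 in sham (difference 0.38 ± 0.19, adjusted p = 0.375). None of these 3 passed by itself, but the tests of the difference between classes did. The endothelial effect was below the stellate and fibroblast effect by 1.39 on the log2 scale (-1.39 ± 0.28, adjusted p = 0.0197) and below the Kupffer effect by 1.06 (-1.06 ± 0.25, adjusted p = 0.0358). How many of the other genes passed the same tests was not counted. Both calls depend on single libraries. The stellate and fibroblast call was lost without pIVCL 2 (adjusted p = 0.0874), without sham 1 (0.0998) and without sham 2 (0.1905), and the Kupffer call without pIVCL 2 (0.182), pIVCL 3 (0.0650), sham 1 (0.323) or sham 2 (0.304). Endothelial cells held 8.51 ± 2.45% of kept Pdgfa in pIVCL and 21.8 ± 1.42% in sham, and stellate cells and fibroblasts 36.0 ± 13.4% in pIVCL and 6.68 ± 0.48% in sham (SD, n = 3 and 2). The exact permutation p was 0.2 for each.

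Pdgfd and Pdgfc did not pass in any class. Endothelial Pdgfd had 37.7, 24.2 and 22.5 CPM in pIVCL and 36.9 and 33.0 in sham (difference -0.37 ± 0.24, adjusted p = 0.375). The library of the first batch, pIVCL 1, was above both sham libraries and the 2 of the later batch were below them. Without pIVCL 1 the difference was -0.68 with an adjusted p of 0.0131. With pIVCL 1 alone against sham it was 0.06, so the value cannot be told apart from the batch. Kupffer Pdgfc had 48.2, 45.0 and 66.9 CPM in pIVCL and 40.1 and 40.2 in sham. These did not overlap, and the difference of 0.39 ± 0.19 had an adjusted p of 0.348. Of the 3 members tested in Kupffer cells 0 passed with edgeR, 0 had an unadjusted p under 0.05 and 0 passed with DESeq2, in a class where 0.343% of 9634 genes passed and 31.8% had groups that did not overlap.

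**Figure D4:**
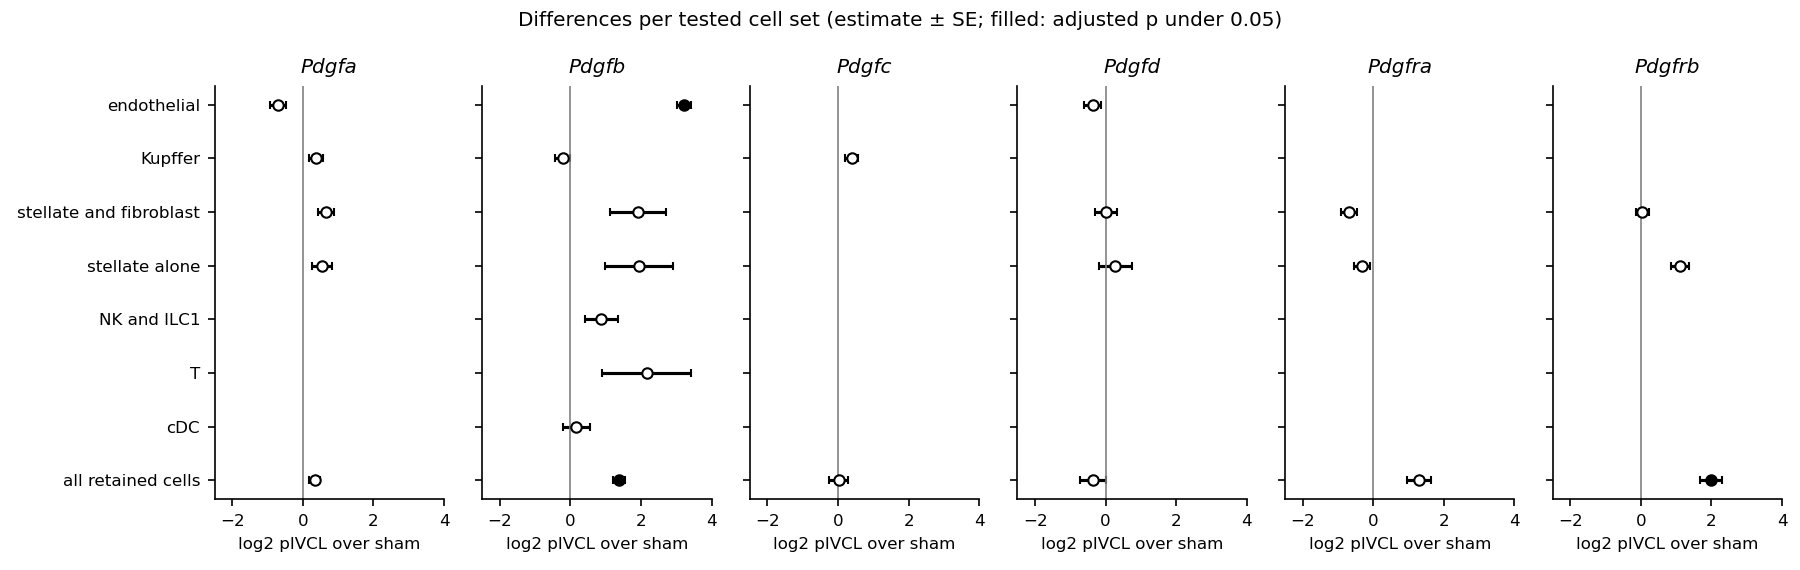
Difference between pIVCL and sham on the log2 scale (x axis, estimate ± SE) for each of the 6 genes in the 8 cell sets that could be tested (y axis), with filled points for an adjusted p under 0.05. The filled points are Pdgfb in endothelial cells at 3.22, and Pdgfb at 1.38 and Pdgfrb at 1.99 over all kept cells.

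The receptors belonged to mesenchymal cells, which formed a stellate cluster (809 cells, with Colec11 and Reln among its leading genes) and a fibroblast cluster (134 cells, with Dpt and Mfap4). Fibroblasts had more Pdgfra than stellate cells in all 5 libraries and more Pdgfrb in 4 of 5. Pdgfra had 564, 602 and 820 CPM in pIVCL fibroblasts and 758 and 796 in sham fibroblasts. In stellate cells it had 349, 235 and 281 CPM in pIVCL and 442 and 333 in sham. Pdgfrb had 363, 257 and 396 CPM in pIVCL fibroblasts and 449 and 470 in sham fibroblasts, and in pIVCL 2 it was higher in stellate cells (275). With 18 fibroblasts in pIVCL 2, fibroblasts were not tested by themselves.

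In stellate cells Pdgfrb was higher in pIVCL, short of the threshold. It had 267, 275 and 279 CPM in pIVCL (348, 471 and 191 molecules) and 175 and 92.7 in sham (63 and 17 molecules in 80 and 32 cells). The groups did not overlap, and the means were 273 ± 6.33 CPM in pIVCL (SD, n = 3) and 134 ± 58.3 CPM in sham (SD, n = 2). The difference was 1.10 ± 0.26 on the log2 scale, with an adjusted p of 0.0820 in edgeR and 0.0363 in DESeq2. Pdgfra differed by -0.31 ± 0.23 (adjusted p = 0.631), with overlapping groups. Of the 5 members tested in stellate cells 0 passed with edgeR and 1 (Pdgfrb) had an unadjusted p under 0.05, in a set where 0.644% of 8070 genes passed and 33.8% had groups that did not overlap. Without sham 1 the Pdgfrb difference was 1.73 (adjusted p = 0.101), so that it moved by over 1.5 times. With pIVCL 1 alone against sham, within the first batch, it was 1.05, from a fit with no spread within pIVCL.

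In the same stellate cells the 12 stellate and fibroblast markers together made up 4.65 to 5.29% of molecules in pIVCL and 3.08 to 3.95% in sham, and 6 of the 12 were higher in every pIVCL library. Endothelial markers made up 0.109 to 0.530% in pIVCL and 0.682 to 0.902% in sham, with none of the 12 higher in every pIVCL library. Hepatocyte markers made up 0.174 to 0.242% in pIVCL and 0.0436 to 0.0628% in sham, with 9 of 10 higher in every pIVCL library. Smooth muscle markers, with 0.0858 to 0.163% of molecules in pIVCL libraries and 0.0665 to 0.0996% in sham libraries, overlapped. The part of these in the Pdgfrb value was not tested.

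**Figure D5:**
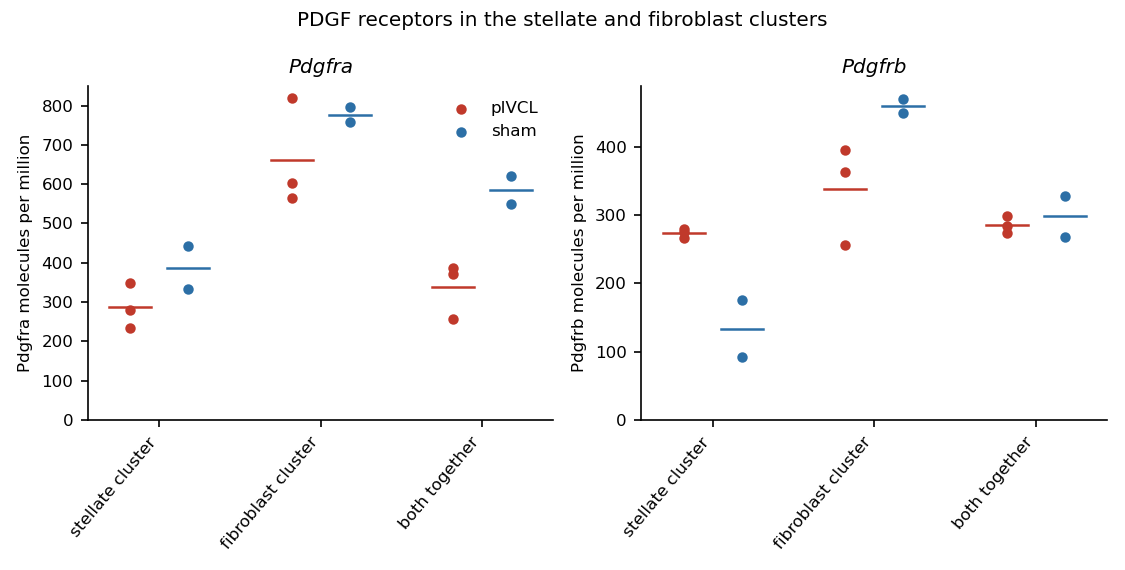
Pdgfra (left) and Pdgfrb (right) in CPM (y axes, from 0) in the stellate cluster, in the fibroblast cluster and in both summed (x axis), with 1 point per library and a bar at the group mean. Stellate Pdgfrb averages 273 in pIVCL and 134 in sham, while the summed class averages 285 in pIVCL and 298 in sham.

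The stellate difference in Pdgfrb was not seen when stellate cells and fibroblasts were summed. Pdgfrb then had 284, 274 and 299 CPM in pIVCL and 268 and 328 in sham (difference 0.04 ± 0.19, adjusted p = 0.948). Pdgfra in the sum had 388, 258 and 372 CPM in pIVCL and 549 and 622 in sham (difference -0.69 ± 0.21, adjusted p = 0.172). The sum was made of 271, 316 and 110 stellate cells with 32, 18 and 20 fibroblasts in pIVCL, and of 80 and 32 stellate cells with 21 and 43 fibroblasts in sham. Fibroblasts gave 13.7 to 29.3% of kept Pdgfra molecules in the pIVCL libraries, against 39.9% in sham 1 and 61.4% in sham 2. Of the 5 members tested in the sum 0 passed with edgeR, 3 had an unadjusted p under 0.05 (Pdgfa, Pdgfb and Pdgfra) and 0 passed with DESeq2, where 0.865% of 8791 genes passed in edgeR and 34.2% had groups that did not overlap.

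Many stellate cells carried both receptors. Both were counted in 95 of 271, 146 of 316 and 51 of 110 pIVCL stellate cells and in 29 of 80 and 8 of 32 sham stellate cells. Pdgfrb without Pdgfra was counted in 50, 83 and 22 cells in pIVCL and in 3 and 4 in sham. Pdgfra without Pdgfrb was counted in 96, 50 and 20 cells in pIVCL and in 32 and 12 in sham. Both receptors were counted in 20 of 32, 10 of 18 and 17 of 20 pIVCL fibroblasts and in 19 of 21 and 33 of 43 sham fibroblasts. In stellate cells and fibroblasts thinned to 1000 molecules, Pdgfra was kept in 28.4 ± 2.59% of pIVCL cells and 41.7 ± 7.09% of sham cells (SD, n = 3 and 2; exact permutation p = 0.2). Pdgfrb was kept in 24.9 ± 1.95% of pIVCL cells and 22.7 ± 5.55% of sham cells (exact permutation p = 0.8). Unthinned, the shares were 68.3 ± 4.47% in pIVCL and 79.3 ± 2.73% in sham for Pdgfra, and 65.9 ± 8.80% in pIVCL and 57.3 ± 9.55% in sham for Pdgfrb. Kupffer cells, deeper at medians of 6476 to 9684 molecules, had Pdgfra in 0.346 to 1.91% of pIVCL cells and in 0.676 and 1.14% of sham cells.

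Over all kept cells, which mixes the number of cells of a class with the level per cell, both receptors and Pdgfb were higher in pIVCL. Pdgfrb had 39.7, 30.1 and 24.4 CPM in pIVCL and 6.30 and 8.78 in sham. It rose by 1.99 ± 0.31, with an adjusted p of 0.04997 that lies at the threshold. Pdgfb had 101, 104 and 108 CPM in pIVCL and 44.0 and 31.7 in sham, and it rose by 1.38 ± 0.17 (adjusted p = 0.0339). Pdgfra had 55.8, 27.6 and 35.9 CPM in pIVCL and 12.9 and 17.5 in sham, which did not overlap (difference 1.31 ± 0.34, adjusted p = 0.137). Pdgfa differed by 0.34 ± 0.15 (adjusted p = 0.279), Pdgfd by -0.35 ± 0.37 (0.626) and Pdgfc by 0.01 ± 0.28 (0.983). Thus 2 of 6 members passed where 1.3% of 13738 genes did and 42.3% had groups that did not overlap. Both calls were lost without pIVCL 2, without sham 1 or without sham 2, with adjusted p-values from 0.164 to 0.465. Stellate cells were 10.7, 9.35 and 4.01% of kept cells in pIVCL 1, 2 and 3, against 1.86 and 0.861% in sham 1 and 2. More such cells and more RNA per cell cannot be told apart in values over all cells.

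Genes around the pathway were read from 6 lists in endothelial cells, stellate cells and Kupffer cells. Of the 9 genes for PDGF processing and co-receptors, 6 were tested in endothelial cells and 1 rose, Plau, the urokinase that can cut PDGF-D. An unadjusted p under 0.05 (edgeR) was found for 5 of the 6. For this and the other lists, the share of all genes with such a p was not counted. Plau had 255, 338 and 400 CPM in pIVCL and 68.5 and 49.4 in sham (2.49 ± 0.24, adjusted p = 0.0024). The CPM of Plau and of all list genes below are TMM-scaled within each cell set, unlike the CPM above. Plau was also among the leading genes of the Esm1-led cluster. The median difference of the 6 was 0.51, against 0.01 over all genes tested. In stellate cells 1 of 7 tested rose, Sparc, a matrix protein that binds PDGF-B, with 11087, 15077 and 17285 CPM in pIVCL and 5069 and 3421 in sham (1.77 ± 0.26, adjusted p = 0.0128; median of the 7 genes 0.38, against 0.00 over all). There 2 of the 7 had an unadjusted p under 0.05.

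Of 22 PDGF receptor effectors (kinases, adaptors and other proteins downstream of the receptors) 21 were tested in endothelial cells and 1 fell, Pik3r1, the regulatory subunit of PI3-kinase, at 94.99, 92.4 and 93.7 CPM in pIVCL and 128 and 144 in sham (-0.54 ± 0.12, adjusted p = 0.0375; median -0.15), in a class where 5.69% of all genes passed. An unadjusted p under 0.05 was found for 8 of the 21. Of these effectors 0 of 19 passed with edgeR in stellate cells (2 had an unadjusted p under 0.05), where 0.644% of all genes did, and 0 of 20 in stellate cells and fibroblasts together (2), where 0.865% did. Of 14 receptor inhibitors 0 of 14 passed in endothelial cells (1 had an unadjusted p under 0.05), 0 of 13 in stellate cells (0) and 0 of 13 in stellate cells and fibroblasts together (1). Of 16 early-response genes, 12 were tested in endothelial cells, and 3 had an unadjusted p under 0.05. Myc, a growth regulator, rose (1.41 ± 0.29, adjusted p = 0.0316) and Dusp5, a phosphatase of the ERK kinases, fell (-0.86 ± 0.18, adjusted p = 0.0328). In stellate cells and fibroblasts together 1 of 12 early-response genes fell, Fos, at 522, 534 and 410 CPM in pIVCL and 1309 and 2192 in sham (-1.84 ± 0.25, adjusted p = 0.0152; median of the 12 genes -0.39). There 3 of the 12 had an unadjusted p under 0.05. In stellate cells alone 0 of 11 early-response genes passed with edgeR, and 1 had an unadjusted p under 0.05. The median of this list was also below 0 in other classes, at -0.36 in endothelial cells and -0.63 in Kupffer cells, where 1 of 12 had a positive difference.

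Among 16 genes of stellate activation, 14 were tested in stellate cells, and 4 rose, with a median of 0.92 against 0.00 over all genes tested. An unadjusted p under 0.05 was found for 9 of the 14. The median of the list was as high in other classes, at 0.99 over the 9 genes tested in endothelial cells and 1.04 over the 6 tested in Kupffer cells. Col3a1 and Col5a1, which encode fibrillar collagens, rose by 1.42 ± 0.27 and 1.13 ± 0.22, and Tagln, a protein of contractile cells, by 1.51 ± 0.29 (adjusted p = 0.0433 each). Lox, which cross-links collagen, had 144 molecules in pIVCL stellate cells and 0 in sham ones, at least 7.03-fold higher against 3 counts over the sham group (adjusted p = 0.0306). With Lox at that bound the median stayed at 0.92. Of 12 genes of stellate quiescence 0 of 11 passed with edgeR in stellate cells, 3 had an unadjusted p under 0.05, and the median was 0.18. In stellate cells and fibroblasts together 1 of 15 activation genes rose, Fn1, which encodes fibronectin (1.42 ± 0.26, adjusted p = 0.0408; median of the 15 genes -0.23). In that sum 10 of the 15 had an unadjusted p under 0.05. In endothelial cells 1 of 9 activation genes passed, Col5a1, which rose (2.20 ± 0.44, adjusted p = 0.0268), 3 had an unadjusted p under 0.05, and 9 of 9 had a positive difference. Of the quiescence genes 1 of 10 passed in endothelial cells, Hgf, the hepatocyte growth factor, which fell to 40.7, 42.8 and 50.4 CPM in pIVCL, against 101 and 114 in sham (-1.27 ± 0.14, adjusted p = 0.00359). Its direction ran against its list, in which 8 of 10 had a positive difference, 7 of 10 had an unadjusted p under 0.05 and the median was 0.70. In Kupffer cells 0 of the 66 list genes tested passed with edgeR, and 9 had an unadjusted p under 0.05. Endothelial Col5a1 had 3.43 to 6.27 CPM in pIVCL libraries and 0.986 to 1.10 in sham libraries. In pIVCL stellate cells, which were scaled separately, it had 686 to 845 CPM. The stellate and fibroblast markers made up 0.0662 to 0.110% of endothelial molecules in pIVCL and 0.0595 to 0.0657% in sham. Their part in the endothelial values was not tested.

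Over 30 sums (6 tested classes in 5 libraries) the genes most like each member in log2 level were taken from 9375 candidates. The sums share libraries and cell classes, so the correlations are a description. Pdgfb was most like Prr5l (Pearson's r = 0.781), Hinfp (0.763) and Pxn (0.713), the lowest likeness of the 6 members. Pdgfa was most like Zeb2 (0.913), Itpripl2 (0.909) and Tmem141 (0.905). Pdgfc was most like Acot1 (0.968), Mmp27 (0.949) and Marco (0.947), the last a scavenger receptor of Kupffer cells. Pdgfd was most like Tbx2 (0.959), Hmcn1 (0.955) and Eml1 (0.950). Pdgfra was most like Efemp1 (0.977), Epha3 (0.973) and Ogn (0.966), and Pdgfrb most like Tpm2 (0.962), Cacna2d1 (0.956) and Runx1t1 (0.953).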

How the data were processed

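The authors deposited molecule counts for each cell and gene, made with version 1.9.1 of the BD Rhapsody WTA pipeline on GRCm39, per the file headers. For the aligner and the annotation, the sources used here name none. Cells with at least 500 molecules, 200 genes and at most 25% mitochondrial molecules were kept. The 3% with the highest Scrublet score per library were removed, since the automatic threshold marked 0.0815%. No correction for free RNA was made. Clusters came from scanpy 1.11.5 (2000 variable genes without the 6 members, 30 components, 20 neighbours, Leiden resolution 1). A class needed at least 3 and 50% of its markers in 25% of cells at 2-fold. Rules on markers of a second class, at 25% of that class's level, were set after the clusters were seen. Molecules were summed per library and class and tested with edgeR 4.0.16 (quasi-likelihood, TMM, filterByExpr, SE from the F statistic) where each library had 20 cells, with Benjamini-Hochberg adjustment over a class at 0.05. DESeq2 1.42.0, other normalization, filters, batch terms, clusterings and left-out libraries were alternatives. Named list genes were up to 4 of lowest p that passed per list and class. Members and lists were chosen with earlier results of these data known. The test was also run on simulated counts with planted changes. These were drawn without a batch or a shift in clusters, so that run cannot speak to either. Whether libraries are separate animals rests on the labels, and p-values measure the spread between these libraries. A fit that left 1 library in a group had no spread within that group and leans on spread shared between genes.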

Additional observations from a re-analysis of the deposited data

Results flagged for a closer look

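For 4 results the response to pIVCL differed between cell sets by a test of the difference itself. How many of all genes passed these tests was not counted, so no share over all genes stands beside the calls. The Pdgfb effect in endothelial cells exceeded that in Kupffer cells by 3.46 on the log2 scale (edgeR, adjusted p = 3.9e-07) and that in the large-vessel-like cluster by 3.25 (adjusted p = 2.23e-34), and both passed without any single library. The Pdgfa effect in endothelial cells less that in Kupffer cells was -1.06 (adjusted p = 0.0358), and less that in stellate cells and fibroblasts it was -1.39 (adjusted p = 0.0197). Both Pdgfa calls were lost on leaving out some single libraries, as given with the ligands.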

How the results depend on the processing

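Endothelial Pdgfb kept its direction and its call under all other filters, scalings, clusterings, batch terms and left-out libraries, at 3.00 to 3.30 on the log2 scale (highest adjusted p 0.00503), but within the clusters led by Esm1 (1.46), Efnb1 (1.14) and Bmp4 (0.83), settings added after seeing the data, it did not pass. Stellate Pdgfrb passed with no filter (1.16), DESeq2 (1.12) and without pIVCL 1. It also passed with batch as a term (1.05), where the difference comes from pIVCL 1 alone against sham. It was 1.05 in the first batch alone and ranged from 0.79 to 1.73 over left-out libraries. Correlations of the deviations of same-numbered libraries from their group means were -0.53 to 0.02. The deviations of 2 sham libraries mirror each other, so these values cannot tell whether replicate numbers pair the libraries. With the replicate block, endothelial Pdgfb was 3.03 (adjusted p = 6.43e-05), stellate Pdgfrb 1.17 (0.0102), and 342 endothelial genes passed.

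Over all cells, Pdgfb did not pass with batch as a term (1.36; left-out libraries 1.16 to 1.62), and Pdgfrb did not pass with DESeq2 size factors (1.98) or the stricter cell filter (1.99; left-out libraries 1.75 to 2.25). Pdgfra passed with batch as a term (1.826) and DESeq2 (1.29), and was 1.829 in the first batch alone. Several results that did not pass changed sign, and the cause was not tested. Pdgfc over all cells was -0.0037 with no filter, -0.407 with batch as a term and in the first batch alone, -0.29 with the replicate block, -0.0036 in DESeq2 and -0.0203 with the stricter filter (left-out libraries -0.29 to 0.18). Pdgfd over all cells was 0.21 with batch as a term and in the first batch alone, and endothelial Pdgfd 0.0566 under both, 0.37 in the Cyp4b1-led cluster and -0.68 to -0.22 over left-out libraries. Kupffer Pdgfb was 0.0883 with members among the variable genes and 0.0905 with the Cx3cr1-led cluster (left-out libraries -0.51 to 0.15). Pdgfrb in stellate cells and fibroblasts was -0.0534 at resolution 2 (left-out libraries -0.10 to 0.22). T-cell Pdgfb was -5.08 with batch as a term, against 2.16 without, and dendritic-cell Pdgfb -0.40 to 1.10 over left-out libraries. Pdgfb in the large-vessel-like cluster was -0.0165 with no filter, -0.38 with batch as a term, -0.37 in the first batch alone and -0.29 with the replicate block (left-out libraries -0.28 to 0.23). The Pdgfa differences between classes ranged from -1.20 to -0.91 (Kupffer) and -1.44 to -1.29 (stellate and fibroblast).

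In the first batch alone, in percentage points of pIVCL minus sham, the thinned share of stellate cells and fibroblasts was -10.3 for Pdgfra and 0.033 for Pdgfrb (left-out libraries -1.74 to 6.12). The endothelial share of molecules was 53.3 for Pdgfb, -2.06 for Pdgfd and -10.8 for Pdgfa, and the stellate and fibroblast share 43.3 for Pdgfa and 7.83 for Pdgfrb. Genes passed numbered 53 to 2545 over left-out libraries in endothelial cells (639 in all), 0 to 777 in Kupffer cells (33), 5 to 366 in stellate cells and fibroblasts (76), 3 to 275 in stellate cells (52) and 0 to 854 over all cells (178), and over other alternatives 342 to 1622, 0 to 476, 42 to 484, 36 to 378 and 53 to 1783. Depth limits Pdgfc, Pdgfa in endothelial cells and both receptors in the 32 stellate cells of sham 2.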
